A study of Mus musculus with 2 samples.

Results

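Isolated H3K9me3 peaks near genes are peaks on chromosomes 1 to 19 that had no other listed peak within 100 kb on either side and at least 1 protein-coding gene span within 500 kb of their midpoint. Of 40119 peaks in the deposited list, 2141 met this rule. They made up 5.65% of the 37904 autosomal peaks. The rule read the positions of the peaks and of the genes, so the distance between peaks is how they were chosen and not a result. Their tag counts come from the same library that placed them and are given as a description, without a test. The remaining 33676 autosomal peaks within 500 kb of a protein-coding gene, called other peaks near genes here, are the main group they are set beside.

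The mark was profiled by ChIP-seq in intestinal stem cells that were sorted as GFP high and CD24 low. The mice were Lgr5-EGFP-IRES-creERT2;setdb1fl/fl on the C57BL/6 strain, aged 8 weeks, and the cells came from 12 mice, which the labels do not tell apart. The series has 1 H3K9me3 ChIP library and 1 control library, which is named input in its title and IgG in its antibody label. Both libraries share the floxed Setdb1 alleles and the reporter at Lgr5, and whether Cre had been induced is not given in the sources used here. Without replicates no spread between samples can be given, so intervals here cover counting error alone. Peaks of 1 library are not independent samples, and intervals on shares describe this list. A histone mark does not measure expression, so the labelled cell type could not be checked against its markers.

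H3K9me3 is a mark of silenced chromatin that is written by several methyltransferases, Setdb1 among them. It often forms broad blocks over repeats, pericentromeric chromatin and clusters of silenced genes, where reader proteins such as HP1 bind it and help it to spread. It is also found as short stretches over single repeat elements and at the promoters of some silent genes. Positions are on GRCm38 (mm10), and gene spans and promoter windows are those of RefSeq on GRCm38.p6.

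A small part of the isolated peaks lay on promoters, and the sequences of the 6 promoter windows under the tallest of them are shown as examples. They are those of protein-coding genes with a name, and windows of predicted and non-coding genes were passed over. Each window runs from 250 bases before a gene start to 50 bases after it, is written 5′ to 3′ on the strand of the gene, and has its CG dinucleotides in capitals. The windows are Gad2 (chr2:22622077-22622376, plus strand), Tmem178b (chr6:39871186-39871485, plus), Mab21l2 (chr3:86548234-86548533, minus), Epha6 (chr16:60605482-60605781, minus), Rpl10l (chr12:66284352-66284651, minus) and Stpg2 (chr3:139205643-139205942, plus).
Gad2: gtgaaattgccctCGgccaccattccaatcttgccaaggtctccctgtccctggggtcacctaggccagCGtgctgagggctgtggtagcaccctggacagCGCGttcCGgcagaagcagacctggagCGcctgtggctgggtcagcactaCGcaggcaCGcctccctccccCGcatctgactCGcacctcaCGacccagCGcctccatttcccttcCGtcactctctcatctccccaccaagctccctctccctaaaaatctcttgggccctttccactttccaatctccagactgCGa
Tmem178b: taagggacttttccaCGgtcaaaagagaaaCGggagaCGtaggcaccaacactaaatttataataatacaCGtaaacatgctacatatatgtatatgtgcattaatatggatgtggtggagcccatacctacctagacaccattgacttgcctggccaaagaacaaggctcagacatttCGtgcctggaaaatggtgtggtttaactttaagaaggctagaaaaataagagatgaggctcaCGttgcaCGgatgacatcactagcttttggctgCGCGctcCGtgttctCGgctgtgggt
Mab21l2: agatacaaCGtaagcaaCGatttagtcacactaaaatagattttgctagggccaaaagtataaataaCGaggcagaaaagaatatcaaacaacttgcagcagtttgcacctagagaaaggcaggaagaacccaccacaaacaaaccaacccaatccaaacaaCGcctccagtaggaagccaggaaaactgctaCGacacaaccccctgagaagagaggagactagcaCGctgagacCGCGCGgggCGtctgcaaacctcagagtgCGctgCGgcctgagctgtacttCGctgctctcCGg
Epha6: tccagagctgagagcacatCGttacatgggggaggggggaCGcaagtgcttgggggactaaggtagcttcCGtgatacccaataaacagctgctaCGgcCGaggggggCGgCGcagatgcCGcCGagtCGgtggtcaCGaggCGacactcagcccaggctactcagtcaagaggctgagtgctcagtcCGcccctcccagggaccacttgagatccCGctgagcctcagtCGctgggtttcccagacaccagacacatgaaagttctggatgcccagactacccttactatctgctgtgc
Rpl10l: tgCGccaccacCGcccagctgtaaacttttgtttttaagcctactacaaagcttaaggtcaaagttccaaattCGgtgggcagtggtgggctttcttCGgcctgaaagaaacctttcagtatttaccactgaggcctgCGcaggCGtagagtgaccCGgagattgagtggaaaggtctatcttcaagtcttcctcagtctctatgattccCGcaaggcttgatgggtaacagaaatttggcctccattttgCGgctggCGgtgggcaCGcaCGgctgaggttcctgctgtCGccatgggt
Stpg2: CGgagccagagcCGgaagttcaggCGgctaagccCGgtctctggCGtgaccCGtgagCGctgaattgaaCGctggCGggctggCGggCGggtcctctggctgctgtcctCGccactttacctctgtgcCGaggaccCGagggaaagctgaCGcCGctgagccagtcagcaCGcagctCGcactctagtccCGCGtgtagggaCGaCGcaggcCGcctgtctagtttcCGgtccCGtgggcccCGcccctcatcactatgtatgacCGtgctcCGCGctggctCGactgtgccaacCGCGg
All 300 bases lay within the peak at Gad2, Epha6, Rpl10l and Stpg2, 296 did at Tmem178b and 220 at Mab21l2. CG dinucleotides numbered 14 in the Gad2 window, 11 in Tmem178b, 14 in Mab21l2, 15 in Epha6, 13 in Rpl10l and 32 in Stpg2, so 5 of these tall promoter peaks lay on windows of 11 to 15 CG and Stpg2 stood apart. Those 5 hold fewer CG than the median of 19 over all windows under isolated peaks, so the printed windows are not typical of that set.

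Isolated peaks were low and short, like most of the list. Their median normalized tag count was 18.9 (quartiles 12.0 and 32.0), which rested on a median of 18 ChIP tags, and the control library had a median of 1 tag under the same peaks. Other peaks near genes had a median of 16.8 (11.5 and 27.2). Autosomal peaks with no protein-coding gene within 500 kb, the gene-desert peaks, had a median of 21.5 (14.1 and 37.2), so isolated peaks stood between both groups. The median width was 785 bp for isolated peaks, 760 bp for other peaks near genes and 825 bp for gene-desert peaks. The median fold over control was 12.32 in both groups near genes, and 12.73 in gene deserts. The lowest control value in the list, 0.5 tag, was reached at 39.7% of isolated peaks (exact Clopper-Pearson 95% interval 37.7 to 41.9%) and at 43.9% of other peaks near genes. The folds of those peaks rest on that floor.

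**Figure D1:**
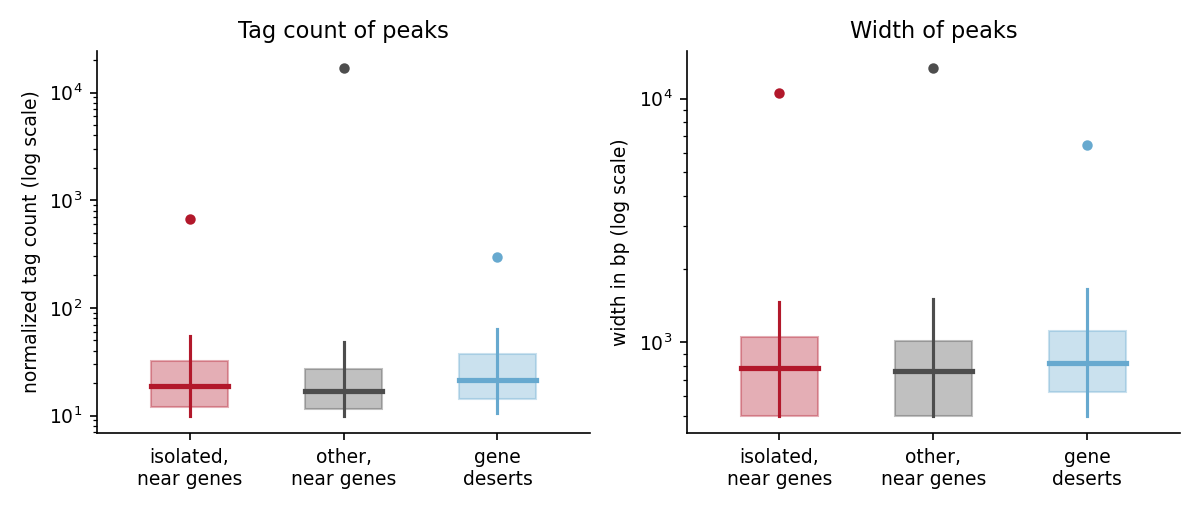
Normalized tag count (left) and width in bp (right) of isolated peaks near genes, other autosomal peaks near genes and gene-desert peaks, on log axes. Boxes span the quartiles, thick lines are medians, thin lines leave out the lowest and the highest 10% and dots are the highest peak. The median tag counts are 18.9, 16.8 and 21.5, and the highest isolated peak has 662.1 normalized tags.

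Tall peaks were somewhat more frequent among isolated peaks, but not when the number of genes nearby was equal. A peak is called strong here when it had at least 50.8 normalized tags, the top 10% of the whole list, and 9.83% of autosomal peaks met this. Among isolated peaks 258 of 2141 were strong (12.1%, 10.7 to 13.5%), against 9.32% of other peaks near genes (9.01 to 9.63%) and 15.8% of gene-desert peaks. Isolated peaks had a median of 5 protein-coding genes within 500 kb, against 12 for other peaks near genes. When peaks with equally many genes nearby were set side by side, the shares were close. With 1 to 3 genes nearby, 15.1% of isolated peaks (12.8 to 17.7%) and 14.8% of other peaks near genes were strong. With 4 to 8 genes the shares were 11.7% of isolated and 11.6% of other peaks. With 9 to 15 genes they were 8.33% and 8.82%, in the same order. With 16 or more genes they were 7.30% of isolated and 6.00% of other peaks, and the interval of the isolated share (3.95 to 12.2%) held the other. Within each of these bins the difference was thus inside the counting error of the isolated peaks.

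Height also differed by where a peak stood relative to genes. Isolated peaks had their midpoint inside a protein-coding gene in 48.5% of cases (46.3 to 50.6%), inside another kind of gene alone in 8.64%, and between genes in 42.9%. Other peaks near genes were inside protein-coding genes in 51.0% of cases and between genes in 40.6%. The places below use the 2055 isolated peaks and 32677 other peaks on chromosomes 1 to 17 and 19, which the promoter table used here covers. Strong peaks made up 4.71% of the 191 isolated peaks that touched a promoter window of any gene (2.18 to 8.76%) and 3.13% of the 192 at another gene end (1.16 to 6.68%). They made up 13.7% of the 693 deeper inside protein-coding genes (11.2 to 16.5%) and 14.3% of the 820 between genes (11.9 to 16.9%). Isolated peaks inside genes were therefore strong about as often as those between genes. Among other peaks near genes these shares were 6.67% inside protein-coding genes (6.20 to 7.17%) and 14.1% between genes. The shares by place were not compared at equal numbers of genes nearby.

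**Figure D2:**
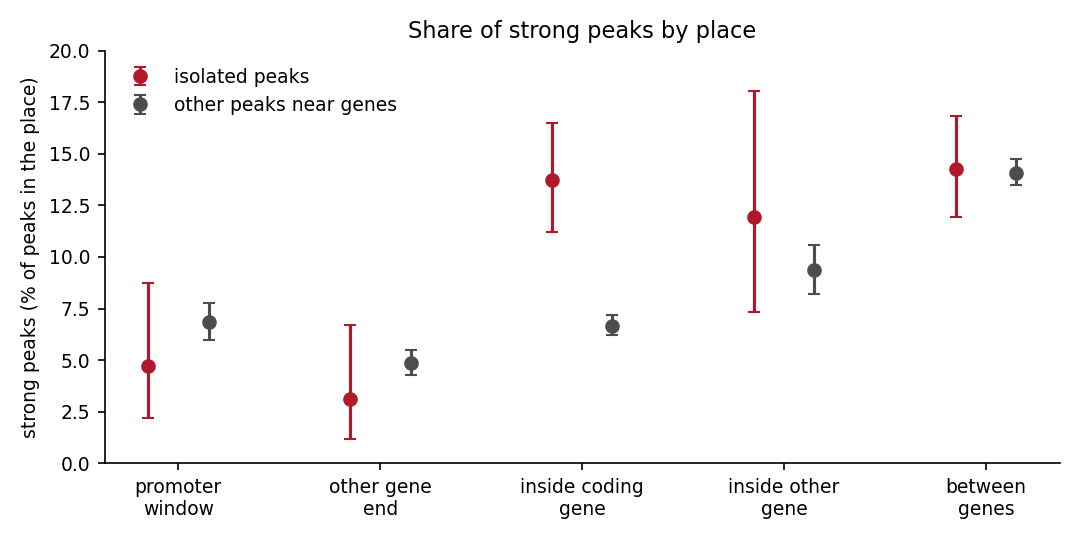
Percentage of peaks in each place that were strong (at least 50.8 normalized tags), for isolated peaks and other peaks near genes. Bars are exact Clopper-Pearson 95% intervals for counting error. Inside protein-coding genes 13.7% of isolated and 6.67% of other peaks were strong, while between genes the shares were 14.3% and 14.1%, in the same order.

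The difference inside genes did not follow the length of the host gene in a steady way. In host genes under 100 kb, 8.46% of isolated peaks away from gene ends were strong (4.30 to 14.6%) and 4.78% of other peaks were (4.27 to 5.34%). In genes of 100 to 250 kb the shares were 13.9% of isolated peaks (8.99 to 20.1%) and 7.10% of other peaks. In genes of 250 to 500 kb they were 9.73% of isolated and 10.1% of other peaks, which did not differ beyond counting error. In genes of 500 kb or more they were 18.4% of isolated peaks (13.9 to 23.7%) and 12.4% of other peaks (10.4 to 14.6%).

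When isolated peaks were ordered by tag count and cut into 4 classes of nearly equal size, the share at gene ends differed between the classes. Within 2 kb of a protein-coding gene end lay 14.7% of the lowest class, 20.9% of the next, 23.7% of the one above (20.2 to 27.6%) and 9.16% of the highest (6.85 to 11.9%). Promoter windows were touched by 6.05%, 12.6%, 12.7% and 5.81% of the same classes. Peaks of middle height, from 12.0 to 32.0 normalized tags, were thus at gene ends most often. The median width was 500, 662, 902 and 1320 bp from the lowest class to the highest.

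Starts of genes and far ends were not alike. The start of a protein-coding gene lay within 2 kb of 12.4% of isolated peaks (255 of 2055, 11.0 to 13.9%) and the far end within 2 kb of 2.43% (50 peaks, 1.81 to 3.20%). Other peaks near genes had 13.5% at starts (13.1 to 13.9%) and 8.34% at far ends (8.04 to 8.64%). The far ends were therefore the place where isolated peaks were scarcer, with intervals that did not overlap, while the intervals of the shares at starts did. Genes stand closer together around the other peaks, and the part of that in the far-end counts was not tested. The strand came from the promoter table, which gave it for 16456 of 20151 protein-coding genes (81.7%), and ends of the remaining genes were not counted. In the 1 kb just after a gene start lay 7.74% of isolated peaks and 7.15% of other peaks, and in the 1 kb before it 2.14% of isolated and 2.36% of other peaks. From 3 to 10 kb on either side no bin held more than 0.487% of isolated peaks.

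**Figure D3:**
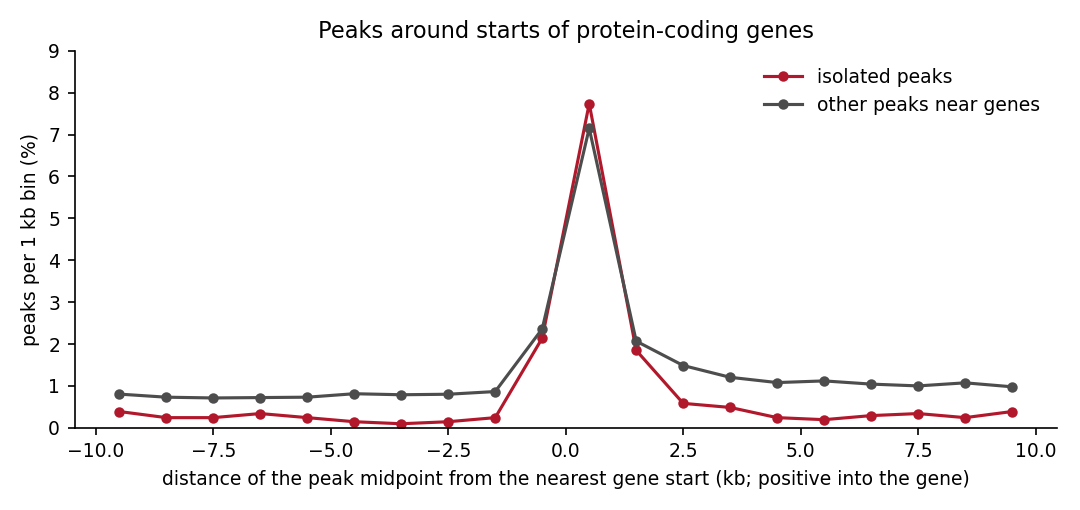
Percentage of peaks in bins of 1 kb around the nearest start of a protein-coding gene of known strand, for isolated peaks and other peaks near genes. Positive distances run into the gene. Both lines peak in the bin just after the start, at 7.74% and 7.15%, and further out the isolated peaks lie below the other peaks.

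Inside genes of at least 100 kb, isolated peaks crowded toward the start. Each gene was cut into 5 equal stretches from its start. The first stretch held 164 of 556 such peaks (29.5%, 25.7 to 33.5%), and the next ones held 18.5%, 18.9%, 16.4% and 16.7%. Other peaks near genes placed 26.3% in the first stretch, which is inside the interval of the isolated share. They placed 23.4% in the last stretch (22.2 to 24.8%). The last stretch thus held a lower share of isolated peaks (13.7 to 20.1%) than of other peaks.

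Promoter windows under isolated peaks were rich in CG. Isolated peaks touched 235 of 31396 windows (0.749%), which belonged to 217 genes, since a gene can have several starts and neighbours can share a peak. These windows held a median of 19 CG dinucleotides (quartiles 14 and 26), against 18 (10 and 25) under other autosomal peaks and 6 (2 and 19) under no peak. At least 15 CG stood in 72.3% of the windows under isolated peaks (66.1 to 78.0%), in 61.5% under other peaks (59.9 to 63.0%) and in 31.2% under no peak. The link was not a steady rise. An isolated peak touched 0.0508% of windows with 0 to 4 CG, 0.415% with 5 to 9, 1.27% with 10 to 14, 2.07% with 15 to 19, 1.78% with 20 to 29 and 0.872% with 30 or more. Other peaks had the same shape, with 1.95% at 0 to 4 CG, 26.9% at 15 to 19 and 11.2% at 30 or more. The control had a median of 1.5 tags under isolated promoter peaks and 1 tag under those deeper inside genes, and the median folds were 9.58 and 12.32 in the same order. The part of the control signal in the promoter peaks was not tested.

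Motif shares were compared with those of all windows, which hold fewer CG, and not at equal base composition. Each motif was searched on both strands. The hexamer TGCCGC, which the imprinting factor ZFP57 binds when its CG is methylated, was in 47 of the 235 windows under isolated peaks (15.1 to 25.7%) and in 11.6% of all windows. GGGCGG, the GC box of Sp1, was in 64.3% (57.8 to 70.4%) and in 36.0% of all windows. Both of these motifs contain a CG, and copies of them can overlap. TATAAA, the TATA box, was in 7.66% of windows under isolated peaks (4.60 to 11.8%) and in 13.6% of all windows. CCAAT was in 33.2% under isolated peaks and in 37.3% of all windows, and the E-box CACGTG in 8.51% and in 7.14%, so the intervals of both held the share over all windows. Of the printed windows, Epha6, Rpl10l and Stpg2 hold the GC box, Epha6 alone holds the ZFP57 hexamer, Gad2, Mab21l2 and Epha6 hold CCAAT, and Tmem178b and Mab21l2 hold the TATA box. A match in these letters is not a bound site.

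The 6 peaks on the printed windows had 47 to 85 ChIP tags. Gad2, which encodes an enzyme that makes the transmitter GABA, had 85 ChIP tags (exact Poisson 95% interval 67.9 to 105) and 8.5 control tags, a fold of 6.84. The printed Gad2 and Epha6 windows are those of inner starts, and the peaks lay 0.6 and 4.2 kb from the outermost start of the span. Mab21l2, a gene of eye development, had 58.5 ChIP tags (44.5 to 75.5) and 6.5 control tags. Epha6, an ephrin receptor of neurons, had 52 ChIP tags (38.8 to 68.2) and 1.5 control tags, a fold of 23.72. Rpl10l is an intronless copy of a ribosomal protein gene that is used in male germ cells. It had 50 ChIP tags (37.1 to 65.9) and 3 control tags over a peak of 1200 bp that covered its start. Tmem178b had 65 ChIP tags and 5.5 control tags. Stpg2, named for repeats of sperm tail proteins, had 47 ChIP tags and 4 control tags, and with 49.2 normalized tags it fell just short of a strong peak.

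At the remaining gene ends the tallest isolated peak was at Thada on chromosome 17 (84459625 to 84464415, 4790 bp), with 139.5 ChIP tags (117 to 165) and 9.5 control tags. It lay inside the gene, and its nearer edge was 1.8 kb from the start. Rb1, the retinoblastoma tumour suppressor on chromosome 14, had a peak of 81.5 ChIP tags and 2 control tags over an end of its span (73192142 to 73194852), a fold of 27.88. Fam50b, an intronless gene copy on chromosome 13, had 51.5 ChIP tags (38.4 to 67.6) beside the lowest control value of 0.5, so its fold of 70.48 rests on that floor. The peak covered the far end of the span, 11.4 kb from the start that the table gives. Kcnv2, a potassium channel subunit of photoreceptors, had 48.5 ChIP tags and 1 control tag, Ccer1 had 55.5 and 4.5, and the olfactory receptor gene Olfr1055 had 82.5 and 3.5, ChIP before control.

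The share of genes with an isolated peak was higher for longer genes. Of 20661 autosomal protein-coding genes, 1041 (5.04%) had an isolated peak within 5 kb of the span, whereas 56.5% had any autosomal peak there. A strong isolated peak was near 111 genes (0.537%). The share with an isolated peak was 0.913% of genes under 10 kb, 2.27% at 10 to 50 kb, 6.76% at 50 to 100 kb, 15.97% at 100 to 250 kb, 44.0% at 250 to 500 kb and 68.8% at 500 kb or more (148 of 215 genes). Longer spans offer more room, so the number per Mb of span is given as well. It was 0.674 at 10 to 50 kb, 0.776 at 50 to 100 kb, 1.03 at 100 to 250 kb, 1.38 at 250 to 500 kb and 1.47 at 500 kb or more. Genes under 10 kb had 1.23 per Mb, from 38 peaks. The rule leaves out peaks that stand close together, so these numbers also depend on how dense peaks are around genes. The part of that density was not tested. Genes with an isolated peak inside had a median length of 171 kb, and all protein-coding genes one of 17.5 kb.

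**Figure D4:**
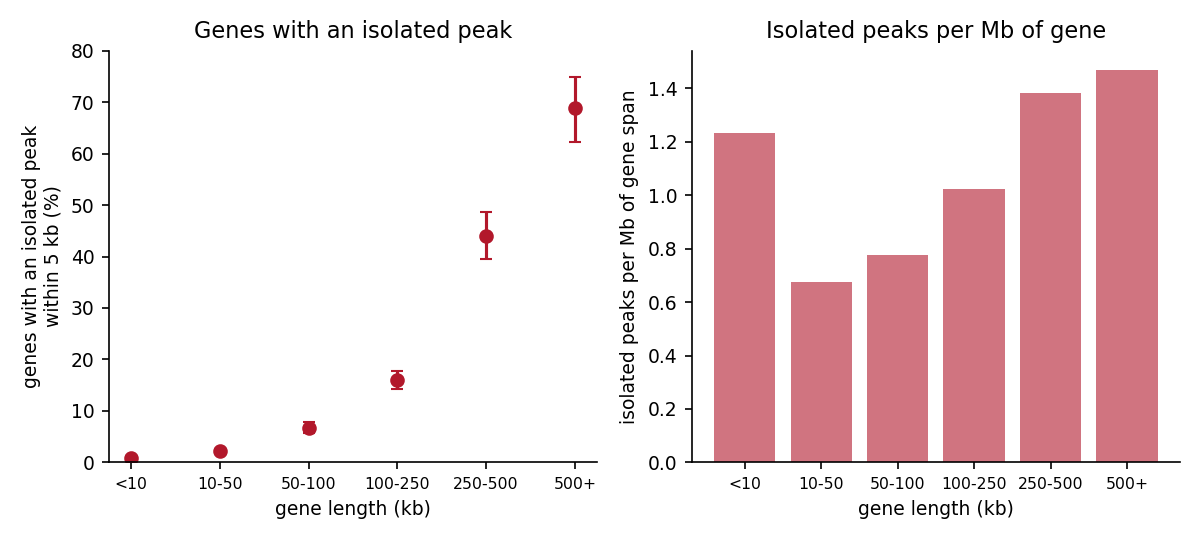
Protein-coding genes by length in kb. The left panel gives the percentage with an isolated peak within 5 kb of the span, with exact Clopper-Pearson 95% intervals, and the right panel gives isolated peaks per Mb of summed gene span. The share runs from 0.913% of genes under 10 kb to 68.8% at 500 kb or more, and the number per Mb from 0.674 at 10 to 50 kb to 1.47 at 500 kb or more.

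Most of these genes carried a single isolated peak. There were 928 genes with 1, 81 with 2, 19 with 3 and 8 with 4, and few genes had more. Dlg2, a scaffold protein of the synapse, had 7 isolated peaks along 1973.1 kb, and the tallest held 55 ChIP tags and 6 control tags. Macrod2, Csmd1 and Cntn5 had 5 each, and their tallest held 79.5, 39 and 65 ChIP tags. Ptprd, the longest gene that held an isolated peak at 2270.5 kb, had 4 with a tallest of 47.5 ChIP tags and 1 control tag. Lrp1b, almost as long at 2058.3 kb, had 1 isolated peak of 11.5 ChIP tags and 1 control tag.

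Genes of neuronal adhesion and synapses stood out among the 24 lists, and their length went with it. An isolated peak was within 5 kb of 26 of 32 of them (81.3%, 63.6 to 92.8%), beside 5.04% of all protein-coding genes, and 9 of 32 had a strong one beside 0.537%. The list had a median gene length of 1112 kb. Its name does not cover all members, since Macrod2, Rbfox1 and Rbfox3 do not encode adhesion or synapse proteins. Of its 27 genes of at least 500 kb, 24 had an isolated peak, against 124 of the 188 other genes of at least 500 kb (66.0%, 58.7 to 72.7%). A strong isolated peak was at 9 of these 27 genes (33.3%) and at 33 of the 188 others (17.6%). Any autosomal peak was at all 27 and at 182 of the 188. These groups were not equal in length, with medians of 1136 kb in the list and 689 kb in the others. Per Mb of span the long genes of the list held 1.89 isolated peaks, and the other long genes 1.37. The median of the tallest isolated peak per gene was 41.4 normalized tags in the long genes of the list and 26.5 in the other long genes. The part of length in the share and in the tallest peak was not tested. The list had been chosen with results on such genes known, so the count is not independent evidence.

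Within the neuronal list the levels ranged widely. The tallest isolated peak of Macrod2 had 83.3 normalized tags, that of the presynaptic adhesion gene Nrxn3 72.8, that of the postsynaptic adhesion gene Nlgn1 71.2 and that of the contactin gene Cntn5 68.1. The Nlgn1 peak had 68 ChIP tags beside 9.5 control tags, a fold of 4.90, near the low end of the list. At the other end, Rbfox1 reached 12.6 normalized tags in its 2 isolated peaks and Tenm2 9.95 in 1. Dpp10, Fgf14, Ntm, Rbfox3, Cntn1 and Cntn6 had none. Of these, Fgf14 and Rbfox3 had 10 peaks each, Dpp10 had 8, Ntm 4 and Cntn1 2 that were closer to a neighbour, and Cntn6 had no peak. Cntnap5b had 3 peaks in 718.4 kb and Nrxn3 had 3 in 1612.2 kb, and all of them were isolated, while 4 of 17 were at Cntnap2.

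Related lists had smaller shares, which are read here beside the 5.04% of all protein-coding genes and the share of genes of like length. Subunits of glutamate and GABA receptors had an isolated peak at 8 of 25 genes (32.0%, 14.9 to 53.5%), none of them strong. Their median length was 395 kb, and 44.0% of all genes of 250 to 500 kb had an isolated peak, so the list did not exceed genes of its length. All 8 were glutamate receptor genes. The 8 GABA receptor genes in the list, of 52.1 to 670.8 kb, had none, and the part of their length in this was not tested. Grin3a, an NMDA receptor subunit, held the tallest with 43.5 ChIP tags (31.5 to 58.5) beside the lowest control value. Gria4 had 29 ChIP tags, Grid1 26.5 and Grm5 25. Non-clustered protocadherins, adhesion proteins of neurons, had one at 3 of 9 genes (33.3%, 7.49 to 70.1%), led by Pcdh15 with 59 ChIP tags and 3.5 control tags. These 3 genes are 417.1 to 1553.6 kb long, and the others in that list at most 94 kb. Classical and type II cadherins had 2 of 17 (11.8%, 1.46 to 36.4%), Cdh13 with 17.5 and Cdh12 with 13 ChIP tags. Their median length was 163 kb, and 15.97% of all genes of 100 to 250 kb had an isolated peak. Voltage-gated potassium channel genes had 5 of 29 (17.2%, 5.85 to 35.8%). Their median length was 42.5 kb, and 2.27% of all genes of 10 to 50 kb had an isolated peak. Those with one included Kcnd2, Kcnd3, Kcnh1 and Kcnh7, which are 222.1 to 514.5 kb long. Kcnd2 alone was strong with 62 ChIP tags (47.5 to 79.5) and 4.5 control tags. The other 4, Kcna4, Kcnh1, Kcnd3 and Kcnh7, had 9.43 to 12.0 normalized tags, where the lowest value of any isolated peak was 9.43.

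**Figure D5:**
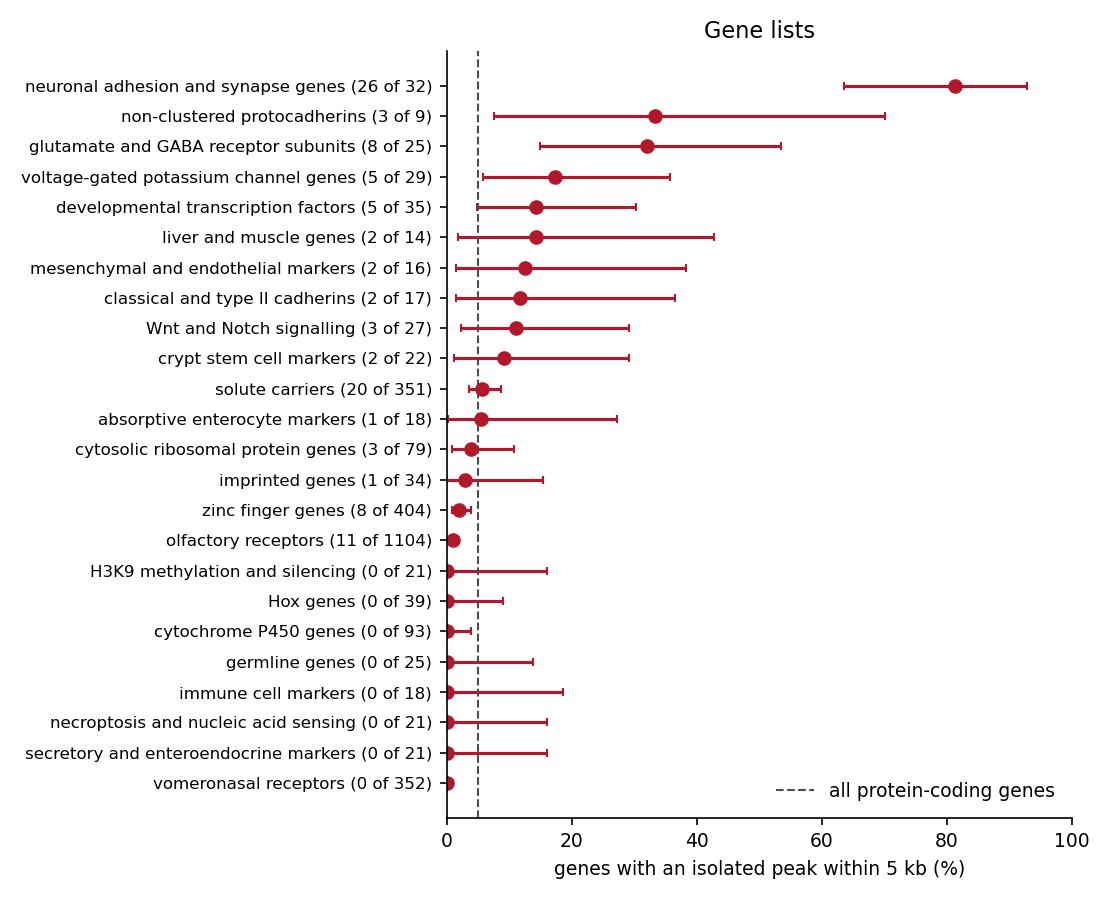
Percentage of genes in each list with an isolated peak within 5 kb of the span, with exact Clopper-Pearson 95% intervals. The numbers in brackets are genes with an isolated peak of all genes in the list, and the dashed line is the share over all protein-coding genes, 5.04%. The list named for neuronal adhesion and synapse genes lies at 81.3%, and 8 lists lie at 0.

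Developmental transcription factors had an isolated peak at 5 of 35 genes (14.3%, 4.81 to 30.3%), an interval that holds the 5.04% of all protein-coding genes. Some peak was near 33 of 35, beside 56.5% of all genes. Sox6, a factor of cartilage and muscle, had 69 ChIP tags (53.7 to 87.3) and 8 control tags inside the gene. Foxp2, a forkhead factor of the brain, had 49 ChIP tags and 4 control tags. The peak of Foxp1 touched a promoter window with 23.5 ChIP tags and 1.5 control tags, and Sox5 had 15.5 ChIP tags and 1 control tag. These 4 are long genes, of 540.6 to 953.9 kb. The fifth, Zeb2, a factor of epithelial to mesenchymal transition, had 14.7 normalized tags.

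Lists of genes of the intestine itself did not differ from all genes in their share with an isolated peak beyond counting error. These lists are small and their intervals wide, so equal shares cannot be concluded. None of their isolated peaks was strong, and a strong one was near 0.537% of all genes. Of 22 crypt stem cell markers, Lgr5 and Cd44 had 1 each (9.09%, 1.12 to 29.2%, beside 5.04% of all genes). At Lgr5, the stem cell receptor that carries the reporter, the isolated peak lay near an end of the span and had 21 ChIP tags beside 0.5 control tag. Its 3 other peaks stood more than 100 kb away, around the opposite end. At Cd44, which encodes a hyaluronan receptor that Wnt signals raise, the peak lay 0.2 kb from the start with 15.5 ChIP tags (8.77 to 25.4) and 1 control tag. No isolated peak was within 5 kb of Olfm4, Ascl2 or Setdb1, nor of Zbp1, Ripk3 and Mlkl, which act in necroptosis. Setdb1 and Olfm4 had no peak of any kind there, and the other 4 genes had 1 each that was not isolated. The nearest lay 613.5 kb from Ripk3 and 1141.9 to 2227.3 kb from the others.

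In the Wnt and Notch list 3 of 27 genes had an isolated peak (11.1%, 2.35 to 29.2%), beside 5.04% of all protein-coding genes, which lies inside the interval. Rbpj, the DNA-binding effector of Notch, had 40.5 ChIP tags and 2 control tags. Dkk2, a secreted Wnt modulator, had 20 ChIP tags and 2 control tags on its promoter, and Sfrp1, a secreted Wnt antagonist, had 18.5 ChIP tags beside 0.5 control tag. Among absorptive enterocyte markers the disaccharidase gene Sis alone had one, with 27 ChIP tags and 2.5 control tags. That was 1 of 18 genes (5.56%). Secretory and enteroendocrine markers had 0 of 21, with an upper bound of 16.1%. Both intervals hold the share of all genes.

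Hox and imprinted genes had a peak more often than all protein-coding genes (56.5%) and an isolated one no more often (5.04%). Of 39 Hox genes 37 had a peak within 5 kb and 0 an isolated one, with an upper bound of 9.03%. Imprinted genes counted 32 of 34 with a peak and 1 with an isolated one, at Trappc9. Zinc finger genes had 244 of 404 with a peak and 8 with an isolated one (1.98%, 0.859 to 3.86%), below the 5.04% of all genes, and none was strong. Their median length was 17.4 kb, and 2.27% of all genes of 10 to 50 kb had an isolated peak. The list thus did not differ from genes of its length beyond counting error. Zfp385b led the zinc finger genes with 30.5 ChIP tags, followed by Zfp518b with 28.5, Zfp930 with 14 and Zfp804a with 13.5. Cytochrome P450 genes had a peak at 38 of 93 and an isolated one at 0 (upper bound 3.89%), and vomeronasal receptors had 58 of 352 and 0 (upper bound 1.04%), so these lists had fewer peaks of either kind than all genes. Their median lengths were 21.2 and 0.96 kb. An isolated peak was at 2.27% of all genes of 10 to 50 kb and at 0.913% of those under 10 kb, below these upper bounds. Necroptosis and nucleic acid sensing genes had 14 of 21 and 0 isolated, genes of H3K9 methylation and silencing 12 of 21 and 0, germline genes 16 of 25 and 0. The upper bounds of these last zeros were 16.1%, 16.1% and 13.7%, so the counts did not differ from the share of all genes beyond counting error. A rule of distance between peaks leaves out peaks that stand close together, whatever their genes.

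Olfactory receptor genes, which lie in large clusters with few peaks, had an isolated peak at 11 of 1104 (0.996%, 0.498 to 1.78%) and any peak at 87. Among all protein-coding genes 5.04% had an isolated peak and 56.5% any peak. Any peak was at 7.88% of the receptor genes and at 43.5% of all genes under 10 kb. The receptor genes have a median length of 0.95 kb. Of all genes under 10 kb 0.913% had an isolated peak, inside the interval of the list. Olfr1055 and Olfr631 had strong ones, of 82.5 and 49.5 ChIP tags, and Olfr461 and Olfr609 had 30 and 20. Cytosolic ribosomal protein genes had an isolated peak at 3 of 79 (3.80%, 0.790 to 10.7%), an interval that holds the 5.04% of all genes. These peaks were at the promoters of Rpl10l, Rps27l (23 ChIP tags, 14.6 to 34.5) and Rps23 (14.5 ChIP tags). Solute carriers had one at 20 of 351 (5.70%), near the share of all genes, and the tallest were at Slc24a4 (45 ChIP tags), Slc35f1 (32), Slc35g2 (31) and Slc7a2 (28.5). Non-epithelial cells may come through a sort. Markers of immune cells had an isolated peak at 0 of 18 genes, and mesenchymal and endothelial markers 2 of 16, both on promoters, Kdr with 18 and Col1a2 with 13 ChIP tags. Of 14 liver and muscle genes, Ttn had one with 27 ChIP tags beside 0.5 control tag, and Apoh one with 10.5. The interval was 0 to 18.5% for the immune list and 1.55 to 38.3% for the mesenchymal and endothelial list. For the liver and muscle list it was 1.78 to 42.8%, and each of these holds the 5.04% of all genes.

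The tallest isolated peaks lay mostly away from gene ends. The tallest of all was on chromosome 3 (6297278 to 6307861), 10583 bp wide, with 632 ChIP tags (584 to 683) and 18 control tags, a fold of 24.02. Its nearest protein-coding gene, a predicted one, was 307552 bp away. Among the next were a peak of 271.3 normalized tags inside Etl4 on chromosome 2 (20382488 to 20389467, 6979 bp) and 1 of 182.3 inside Fgf12 on chromosome 16, which encodes a regulator of sodium channels. Others lay 46.8 kb from Pid1 (227.3 normalized tags), near Adam7 (176), 398.6 kb from Cited2 (199), 325.0 kb from B3gat1 (168.7) and 490.0 kb from Impg1 (233.6). Of the remaining 4 among the 12 tallest, 3 were near or in predicted genes and 1 was near Aadac. The tallest of these 4, with 462 normalized tags over 9429 bp on chromosome 5, touched the promoter window of a predicted or non-coding gene. Broad peaks were rare, at 0.467% of isolated peaks of 3 kb or wider (0.224 to 0.857%), against 1.17% of other peaks near genes (1.06 to 1.29%).

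The peak near Aadac, a gene of lipid metabolism, differed from the rest. It had 363 ChIP tags (327 to 402) and 53.5 control tags over 1546 bp on chromosome 3 (60044755 to 60046301), 4.6 kb from the gene. Its fold was 4.64, where the lowest of any isolated peak was 4.22. Its control count was the highest of all isolated peaks. The next were 18 tags at the tallest peak and 16.5 at the peaks in Etl4, near Impg1 and near a predicted gene.

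Of the 5 most isolated peaks, those near BC052040 and in Rbms3 were strong and the other 3 lay below the median height. On chromosome 2 a peak of 56 ChIP tags (42.3 to 72.7) and 6.5 control tags had no other within 662.9 kb, and its nearest gene, BC052040, was 417.6 kb away. A peak in Dnajc13, which works in endosomes, had 14.5 ChIP tags and 1 control tag and stood 585.1 kb from the next. A peak in Rbms3, an RNA-binding protein gene, had 73.5 ChIP tags (57.7 to 92.3), 1.5 control tags and a gap of 518.8 kb. Peaks in Kirrel3 and near Camk1g had 11.5 and 9 ChIP tags, with gaps of 492.4 and 485.3 kb. The median height differed little with the gap, and strong peaks were more frequent at wider gaps only among peaks more than 50 kb from the next. Peaks near genes 50 to 100 kb from the next had a median of 17.8 normalized tags, those at 100 to 150 kb 18.3, and those at 150 to 200 kb and beyond 200 kb 18.9 each. Strong peaks made up 10.5%, 10.6%, 13.9% and 14.7% of the same classes, and the number of genes nearby had medians of 6, 5, 5 and 3. The classes from 150 kb up held 481 and 381 peaks, and no intervals were computed for these shares. Nearer peaks did not continue this order, with 7.83% strong at 10 to 50 kb and 10.2% at 10 kb or less. In runs of at least 10 peaks with gaps of at most 10 kb, 17.7% were strong (15.4 to 20.1%). The peaks just inside the threshold, at 100035, 100086 and 100089 bp, had 45.6, 26.2 and 11.0 normalized tags, and those just outside, at 99940, 99958 and 99989 bp, had 48.2, 11.5 and 19.9.

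Isolated peaks were spread over all 19 autosomes at 0.870 per Mb. Chromosome 9 had the most, at 1.13 per Mb, and there 8.15% of peaks were isolated (6.90 to 9.54%). Chromosomes 11 and 17 had the fewest, at 0.672 and 0.675 per Mb, or 3.38% (2.70 to 4.18%) and 3.28% (2.54 to 4.17%) of their peaks. Both are among the chromosomes densest in peaks, with 19.9 and 20.6 per Mb. Chromosome 3 had the most strong isolated peaks, at 26 of 130, and a median of 24.9 normalized tags, against 15.2 on chromosome 19.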

How the data were processed

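The submitters' processing notes name the aligner Bowtie2 (2.2.8), the peak caller suite HOMER (4.10.1) and the builds GRCm38 and mm10. Caller options were not given in the sources used here. Per the file headers, the deposited normalized tag count and the control tags are coverage signals, the score is a value that the caller attached to each peak, the fold is a ratio of scaled ChIP tags to control tags, and each peak has a p-value from the caller that was not used. Low normalized counts were whole steps of 0.524, the worth of 0.5 tag (100% within a tolerance of 0.1, for values under 40), which gave the tags. The control library held 0.684 times as many tags as the ChIP library.

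Distances between peaks run from end to start over the full list. Genes came from a RefSeq table of GRCm38.p6, without exons or repeats, and starts and strands from its promoter table, which was not used for chromosome 18. No genome sequence was used. Classes by exon, intron and repeat were not analysed here. Intervals are exact Poisson for tags and exact Clopper-Pearson for shares, at 95%. No test between groups was made, since each has 1 library. The membership code was tested on simulated peaks against a direct search. Analyses used Python 3.11.15, pandas 2.3.3 and scipy 1.17.1.

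The members and the 24 gene lists, 8 of them taken by symbol pattern, were chosen with earlier results of these data known. The genes named were the nearest to the 12 tallest peaks, the 10 with the tallest peak at a gene end, up to 4 per list, the 5 most isolated, widest and highest in control, the 5 longest and those with most members, and 7 genes of stem cells and necroptosis. Predicted genes were counted and not named. 1 gene that the rule names is not reported here. Genes without an isolated peak, list members beyond 4, and Jarid2, Snhg14, Peg13, Pced1c-ps, Cyp2b28-ps and Rps4l-ps were named after their values were seen. Alternatives were other distances, merged peaks, a fold of at least 8 and score limits.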

Additional observations from a re-analysis of the deposited data

How the results depend on the processing

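All values here have no test, and a share or median counts as moved when it left the 95% interval of the reported value, and a count when it changed by over 1.5 times. Of 53 recomputed values 31 stayed inside and 22 moved. With peaks at least 50 kb apart there were 6103 isolated peaks near 2645 genes, and 46.0% were inside protein-coding genes. At 200 kb there were 381 near 209 genes, and 51.4% were inside. With a gene required within 100 kb, 65.0% were inside genes and 23.0% within 2 kb of an end, since the more distant peaks drop out. With peaks within 5 kb merged first, the medians were 21.0 normalized tags and 826 bp, and 35.8% were at the lowest control value. At a fold of at least 8, 14.1% were within 2 kb of a gene end and 50.1% at the lowest control value. With scores at or above the list's median there were 1369 peaks near 683 genes, with medians of 23.6 normalized tags and 868 bp and 22.6% at the lowest control value. With the list reduced to such scores before isolation was judged, the medians were 22.0 normalized tags and 829 bp, and 25.4% were at the lowest control value. Within 5 kb of a gene end in place of 2 kb lay 20.8%. The cause of these shifts was not tested. No paired analysis was possible because each group has 1 library. With a median of 18 ChIP tags and 1 control tag, the fold of a single peak is imprecise.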

Other observations

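Isolated peaks also lay in genes that make no protein. The midpoint was in a long non-coding RNA gene for 191 isolated peaks and in a pseudogene for 55. The peak counted at Trappc9 also had its midpoint in Peg13, an imprinted non-coding RNA gene that lies within Trappc9 on chromosome 15 (72809283 to 72810869), with 58 ChIP tags and 2.5 control tags. Snhg14, the long host transcript of the imprinted Snrpn region on chromosome 7, held isolated peaks of 68 ChIP tags (exact Poisson 95% interval 52.8 to 86.2) with 4.5 control tags and of 24 ChIP tags with 0.5 control tag. Among pseudogenes with a name, Pced1c-ps on chromosome 1 held 61.5 ChIP tags (47.1 to 78.9) and 1 control tag, Cyp2b28-ps 36 and 1.5, and Rps4l-ps 33.5 and 2.5, ChIP before control.

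The isolated peak with the most tags per kb lay inside Jarid2, which encodes a partner of Polycomb complexes, on chromosome 13 (44869898 to 44870398). It had 126 ChIP tags (105 to 150) and 13.5 control tags in 500 bp, or 252 tags per kb, against a median of 23 over all isolated peaks. The clonal fold that the authors' caller gave it was 1.94, where the quartiles of isolated peaks were 0.95 and 0.99.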
